A study of Mus musculus with 4 samples.

Results

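The imprinted Dlk1-Dio3 domain lies on mouse chromosome 12 and is described here through 6 of its genes, Begain, Dlk1, Meg3, Rian, Mirg and Dio3, in Hi-C contact maps of male mouse embryonic stem cells (mESCs). All bins of chromosome 12 from 500 kb before the first to 500 kb after the last of these gene bodies were taken, which gave a window of 57 bins of 40 kb (mm9, chr12:109760001-112040000) out of 66382 bins of the genome. The gene bodies overlap 9 of these bins, and all 57 bins were kept in both matrices. The rule takes bins by gene position alone, although the genes were chosen with earlier results of these data known.

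The study asked whether deleting the Firre locus, which encodes an X-linked long non-coding RNA, alters domains of chromatin contacts. Hi-C, which counts the ligation products of DNA ends that lie close together in the nucleus, was done in situ with the restriction enzyme HindIII. There were 2 libraries of wild-type (WT) and 2 of Firre knockout (Firre KO) male mESCs, and the authors merged the libraries of each group into 1 matrix. The study describes its mESC libraries as technical duplicates. The WT cells were the N3 line, cultured in 2i medium, which holds cells in a naive pluripotent state with inhibitors of differentiation signalling. The Firre KO cells are described as carrying a deletion of the entire Firre locus, which the contacts of the matrix with that label do not bear out, since the 40 kb bin wholly inside Firre held 2011 read pairs there and 1782 in WT. These cells were grown in 2i medium with irradiated feeder fibroblasts, which were depleted by plating before use. Whether the Firre KO cells derive from the N3 line is not stated in the sources used here, so the labelled genotype, the culture on feeders and a possible difference of cell line cannot be told apart. With 1 matrix in each group there is no replicate, no test and no p-value. Intervals in brackets are 95% intervals that cover counting error only, and none is printed for insulation scores, border strengths or eigenvector values. The place of a value among all autosomal positions is a description of these matrices. Contact matrices hold no expression, so the cell type could not be checked against its markers. Both parental copies of chromosome 12 are pooled in each matrix, so no value separates the maternal from the paternal domain.

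The genes of the domain are expressed from 1 parental chromosome. Dlk1, which encodes a membrane protein related to the ligands of Notch, Rtl1, a retrotransposon-derived gene, and Dio3, which encodes the deiodinase that inactivates thyroid hormone, are expressed from the paternal copy. The long non-coding RNAs Meg3, Rian and Mirg are expressed from the maternal copy, and Rian and Mirg are hosts of small nucleolar RNAs and microRNAs. A differentially methylated region between Dlk1 and Meg3 controls this pattern, and in cultured pluripotent cells the cluster is known for losses of its maternal expression. Begain, a brain-enriched gene, lies at the proximal end of the cluster.

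In mm9, Begain occupies chr12:110270397-110291589 on the minus strand. The other 5 genes lie on the plus strand. Dlk1 occupies chr12:110691033-110701546, Meg3 chr12:110779211-110809936, and Rian chr12:110842155-110899919. Mirg occupies chr12:110973191-110987665 and Dio3 chr12:111517278-111519307. Counted from the start of Dlk1, the start of Begain lies at -399 kb and that of Dio3 at 826 kb. The segment from Dlk1 to Mirg has 8 bins and holds 56 annotated microRNAs and 23 small nucleolar RNAs, and the 12 bins between Mirg and Dio3 hold no annotated protein-coding gene, microRNA or small nucleolar RNA.

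The promoters of Dlk1, Meg3 and Dio3 are shown because the main contact measured here joins the bins of Dlk1 and Meg3 with that of Dio3, and HindIII sites set where such contacts can be ligated. Each runs from 250 bases before to 50 bases after the gene start in the RefSeq table of assembly GRCm38.p6, and each matched mm9 exactly and once. Capitals mark the HindIII site (AAGCTT), and the core of the CTCF motif was searched as well, on both strands. That core is read here as CCA, any 2 bases, AG, any 2 bases and GGC.
Dlk1 promoter, chr12:110690783-110691082, plus strand: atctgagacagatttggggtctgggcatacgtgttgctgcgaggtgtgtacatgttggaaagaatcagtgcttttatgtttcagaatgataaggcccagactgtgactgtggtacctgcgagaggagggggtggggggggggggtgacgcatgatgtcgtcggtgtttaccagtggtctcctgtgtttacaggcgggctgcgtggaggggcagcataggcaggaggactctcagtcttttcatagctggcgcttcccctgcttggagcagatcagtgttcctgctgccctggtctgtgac
Meg3 promoter, chr12:110778956-110779255, plus strand: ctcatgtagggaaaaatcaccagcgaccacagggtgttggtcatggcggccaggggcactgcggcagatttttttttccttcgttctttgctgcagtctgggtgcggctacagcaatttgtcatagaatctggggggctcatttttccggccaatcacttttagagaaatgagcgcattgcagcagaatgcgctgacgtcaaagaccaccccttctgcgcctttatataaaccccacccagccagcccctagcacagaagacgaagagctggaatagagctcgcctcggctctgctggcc
Dio3 promoter, chr12:111517190-111517489, plus strand: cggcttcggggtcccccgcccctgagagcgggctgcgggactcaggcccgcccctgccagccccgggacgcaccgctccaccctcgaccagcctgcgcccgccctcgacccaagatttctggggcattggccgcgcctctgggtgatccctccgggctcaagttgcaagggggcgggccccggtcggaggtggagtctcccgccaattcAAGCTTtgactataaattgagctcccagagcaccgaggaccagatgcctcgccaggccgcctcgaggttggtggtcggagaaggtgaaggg

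The Dio3 promoter held 1 HindIII site, at position 210 of the 300 bases, and those of Dlk1 and Meg3 held none. The core of the CTCF motif was in none of these windows. Of 32851 promoters in the table, 7.45% held a HindIII site and 2.43% the CTCF core. The promoters differ in base composition, with 9 CpG dinucleotides in that of Dlk1, 13 in that of Meg3 and 25 in that of Dio3, and with a GC content of 55.7%, 53.7% and 69%. The start of Dlk1 lies in a HindIII fragment of 9360 bases and that of Meg3 in one of 16504 bases.

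Whole read pairs could be recovered from the corrected matrices, 65611035 in WT and 46635652 in Firre KO. Pairs that join different chromosomes were 16.1% of all in WT and 35.6% in Firre KO. The insulation scores of the autosomes spread more widely in the matrix with the Firre KO label, with a standard deviation of 0.82 against 0.47 in WT. The part of depth and of pairs between chromosomes in the values below was not tested, and scores divided by the SD of their matrix were computed for the gene bins alone, not for the troughs or the rest of the window. Counting contacts with the rest of the X chromosome, the bin that lies wholly inside Firre held 1550 pairs (WT) and 1144 pairs (the matrix with the Firre KO label), so read pairs were not lost there. That matrix is called the KO-labelled matrix below. The window held 49970 read pairs in WT and 26790 in the KO-labelled matrix. The 9 gene bins each had 1455 to 5025 read pairs in WT and 964 to 3349 in the KO-labelled matrix, and their share between chromosomes was 18.5% to 21.2% against 35.1% to 42.1%.

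To ask whether the genes lie in the same domain in both matrices, the insulation score was computed, which is the log2 of the contacts that cross a bin, within a square of 480 kb, over the mean of the chromosome. The interquartile mean of the square was taken and smoothed over 5 bins. A low score marks few crossing contacts. In both matrices the 6 genes lay in 1 stretch between a pair of troughs. The trough scores were lower in the KO-labelled matrix, whose scores also spread more widely over the autosomes. The proximal trough was lowest at chr12:110040001-110080000, a bin of Slc25a29, with a score of -0.65 in WT and -1.57 in the KO-labelled matrix. The distal trough was lowest at chr12:111600001-111640000 in WT, with -0.54, and at the next bin in the KO-labelled matrix, with -1.25. By place the matrices differed less. The proximal minimum was above 10.8% of autosomal bins in WT and 5.66% in the KO-labelled matrix, and the distal one above 15.5% and 9.21%. Between them, the scores were no higher than 0.28 in WT but reached 0.92 in the KO-labelled matrix.

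**Figure D1:**
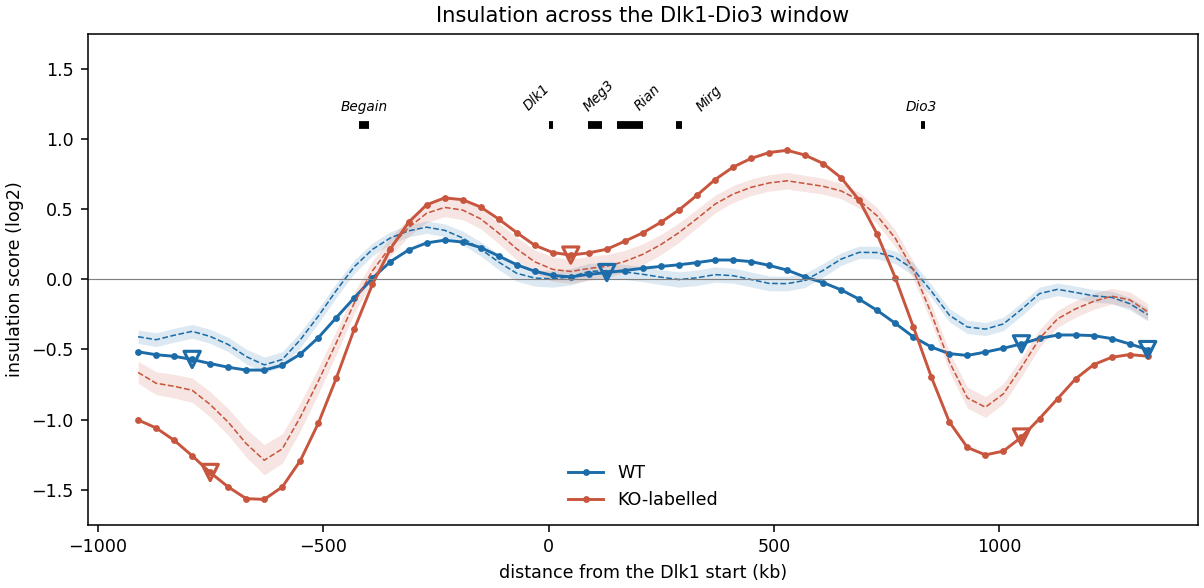
Insulation score (log2, vertical axis) of each 40 kb bin against its distance from the Dlk1 start (kb, horizontal axis) in WT (blue) and the KO-labelled matrix (red). Solid lines are the scores, dashed lines with bands the plain mean of the same square with its 95% counting interval, triangles the called borders, and black bars the 6 genes. The KO-labelled line is lower at both troughs, -1.57 and -1.25, and higher between Mirg and Dio3, where it reaches 0.92.

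Borders were called where the mean score of the 320 kb before a bin falls to that of the 320 kb after it, and the strength is the size of that swing. Where a trough is lopsided, such a border can lie some bins from the lowest score. In WT there were 4 in the window. The first was in a bin of Evl, which encodes a regulator of actin, at chr12:109880001-109920000, with a strength of 0.79. The next, at chr12:110800001-110840000, held the end of Meg3 together with Rtl1 and had a strength of 0.19. The other two lay in Ppp2r5c, which encodes a subunit of a protein phosphatase, at chr12:111720001-111760000 with a strength of 0.51, and in Wdr20a at chr12:112000001-112040000 with 0.23.

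The KO-labelled matrix had 3 borders in the window. One was in the bin of Evl and Degs2, chr12:109920001-109960000, with a strength of 1.96, next to the WT border in Evl. Another, with a strength of 0.72, lay between Dlk1 and Meg3 at chr12:110720001-110760000, in a bin without an annotated gene. The distal one was in the same bin of Ppp2r5c as in WT, with a strength of 2.18. Thus 2 of the 4 WT borders had a partner within 1 bin, where 44.4% of the 2178 autosomal WT borders did, and 3 had one within 2 bins. The borders inside the gene cluster were weak, since the median strength of autosomal borders was 1.11 in WT and 1.78 in the KO-labelled matrix. The WT border at Meg3 also depended on the settings. The nearest WT border lay 200 kb from it with the plain mean and 280 kb from it with a square of 240 kb.

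With the 480 kb square, the gene bins themselves differed by less than 0.5. Begain scored -0.06 in WT and -0.20 in the KO-labelled matrix, as the mean of its 2 bins. Dlk1 scored 0.03 and 0.19, and Meg3 0.04 and 0.20. Values of this size place these genes near the chromosome mean in both matrices. Rian scored 0.07 and 0.30, and Mirg 0.10 and 0.49. Dio3, on the slope toward the distal trough, scored -0.41 and -0.34. In the bin of the gene start, the sign of these differences turned for Dlk1 and Meg3 with a square of 240 kb, at -0.27 and -0.25, and for Dlk1, Meg3 and Rian from uncorrected read pairs, at -0.23, -0.21 and -0.09. That of Dio3 turned from uncorrected read pairs, at -0.12, and with a square of 960 kb, at -0.19. With scores divided by the autosomal SD it was 0.46, in units of SD and not log2. For these reasons no direction is given for these 4 genes. The size depends on the square as well. With 960 kb, the start bins differed by -0.81 at Begain, 0.51 at Dlk1, 0.60 at Meg3, 0.67 at Rian and 0.78 at Mirg. With the 480 kb square none of the 9 gene bins differed by 0.5 or more (0 higher, 0 lower), where 6.55% of 58107 autosomal bins were higher and 17.2% lower by that much.

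The wider window did hold such bins, 10 higher and 15 lower of 57. With the plain mean of the square it held 7 higher and 7 lower, where 2.95% of autosomal bins were higher and 9.10% lower. The higher ones were all in the stretch between Mirg and Dio3 without annotated protein-coding genes, microRNAs or small nucleolar RNAs. At chr12:111240001-111280000 the score was 0.02 in WT and 0.88 in the KO-labelled matrix. That difference of 0.87 was above those of 99.5% of autosomal bins. It was the largest of the 57 bins of the window, so a high place was favoured by the choice of bin. The plain mean of the square, which allows a counting interval, differed there by 0.69 (0.61 to 0.77). Of the lower bins, those around Yy1, which encodes a zinc finger regulator of transcription, and Slc25a29, which encodes a mitochondrial carrier, differed most. At the start of Yy1 the score was -0.65 in WT and -1.56 in the KO-labelled matrix. That difference was above those of 6.93% of autosomal bins, and with the plain mean it was -0.62 (-0.73 to -0.50). Of the bin pairs in that square, 0.69% held no read pair in WT and 19.4% held none in the KO-labelled matrix.

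Contacts were then set against the mean of chromosome 12 at the same distance, as observed over expected, so that 1 is the chromosome's average. The domain between the borders that the matrices share, chr12:109920001-111720000, was chosen after the borders were seen. It spans 45 bins, 1.8 Mb, and holds all 6 genes. Its ends depend on the settings. With the plain mean of the square, the WT border nearest to the distal one lay 400 kb away. With a square of 960 kb, the WT border nearest to the proximal one lay 280 kb away, and the KO-labelled matrix had no border in the window. Contacts within the domain were at 1.05 (1.03 to 1.07) in WT and 1.39 (1.36 to 1.43) in the KO-labelled matrix. The log2 ratio was 0.41 (0.37 to 0.46), which is above 96.9% of the same triangle placed elsewhere on the autosomes. This triangle was set between called borders and the placements were not, so the choice favoured a high place. Contacts across the proximal border were at 0.675 in WT and 0.474 in the KO-labelled matrix, a log2 ratio of -0.51 (-0.64 to -0.37). Those across the distal border were at 0.873 and 0.592, a ratio of -0.56 (-0.67 to -0.44). Contacts inside the domain were therefore higher, and those across its ends lower, in the KO-labelled matrix. Lower contacts across borders were common, as 23.0% of 2177 autosomal WT borders had a log2 ratio of -0.5 or below. With a square of 240 kb the ratio at the proximal border was -0.17. The regions next to the domain also had more contacts within themselves, with a ratio of 0.22 (0.14 to 0.30) over the 480 kb before it and 0.29 (0.21 to 0.36) over the 480 kb after it.

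**Figure D2:**
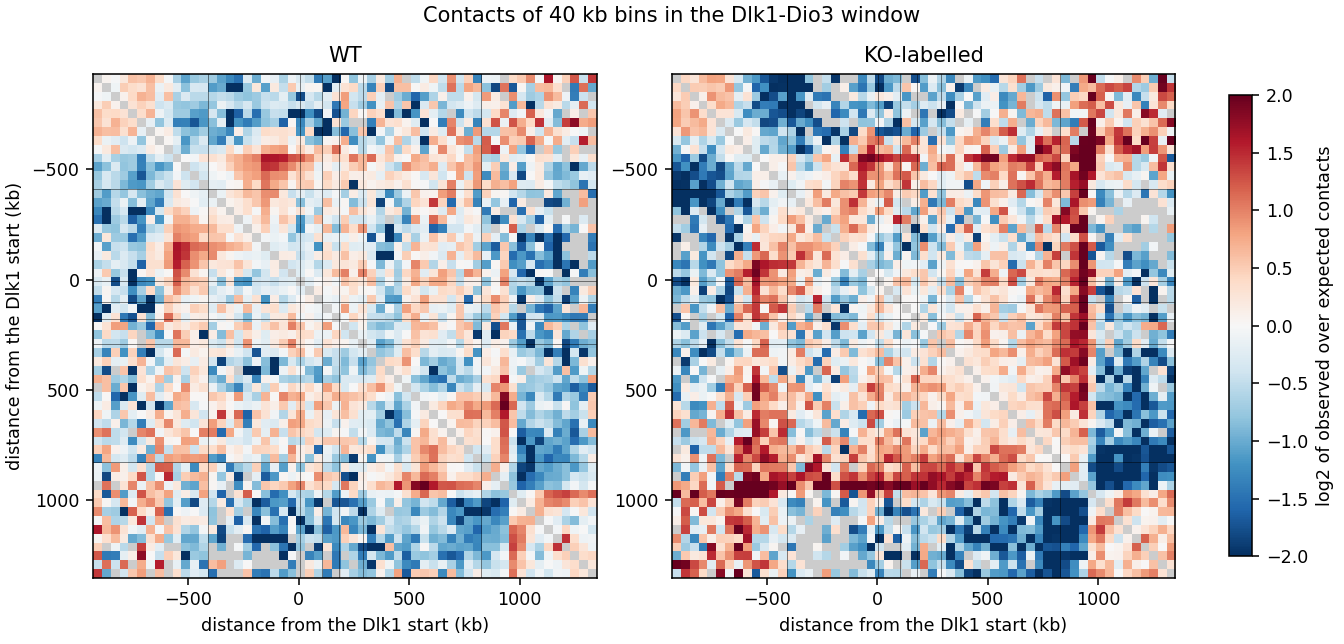
Contacts between the 40 kb bins of the window in WT (left) and the KO-labelled matrix (right), with both axes as distance from the Dlk1 start (kb), black lines at the 6 genes, and colour as log2 of observed over expected contacts. Grey marks the diagonal and pairs without read pairs. In the KO-labelled map a line of high contacts runs from a bin at 929 kb across the domain to a corner near -551 kb, and contacts across both ends are low.

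The contact that the window was chosen to measure joins the 4 bins from Dlk1 to Meg3 with the bin of Dio3. WT had 22 such read pairs against 36 in the KO-labelled matrix, although the latter was the shallower. Observed over expected was 0.913 (0.571 to 1.39) in WT and 2.17 (1.51 to 3.03) in the KO-labelled matrix. The WT value lay at the chromosome's average and the other above it, and their intervals did not overlap. The log2 ratio was 1.25 (0.45 to 2.08). The Dio3 bin also had ratios above 0 with most of the domain, though few beyond counting error. Leaving out the Dio3 bin and the bin on either side of it, 42 bins of the domain were read. Their median was 0.971 in WT and 1.78 in the KO-labelled matrix, with a ratio above 0 at 34. Over the 12 bins outside the domain the median was 0.493 and 0.277. Of all 54 bins, the ratio's interval lay above 0 at 7 and below 0 at 3. No autosomal share was computed for these counts. Of the 54 bins read, those from Dlk1 to Meg3 ranked 25, 5, 11 and 22 by their contact with Dio3 in the KO-labelled matrix.

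Read bin by bin, the counts were small. The Dlk1 bin had 6 read pairs with Dio3 in each matrix. The bin between Dlk1 and Meg3 had 4 in WT and 13 in the KO-labelled matrix. The first Meg3 bin had 7 and 11, and the second 5 and 6. No bin had fewer read pairs in the KO-labelled matrix, but single bins rest on few read pairs, and only the bin between the genes had a ratio whose interval excluded 0, at 2.30 (0.67 to 4.33).

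Blocks of the same shape and distance were read at 56074 autosomal positions. The WT value was above 53.5% of them and that of the KO-labelled matrix above 91.6%. The log2 ratio was above 94.9% of the 55206 positions with read pairs in both matrices. A ratio of 0.5 or more was found at 22.2% of these positions and one of -0.5 or less at 34.0%.

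**Figure D3:**
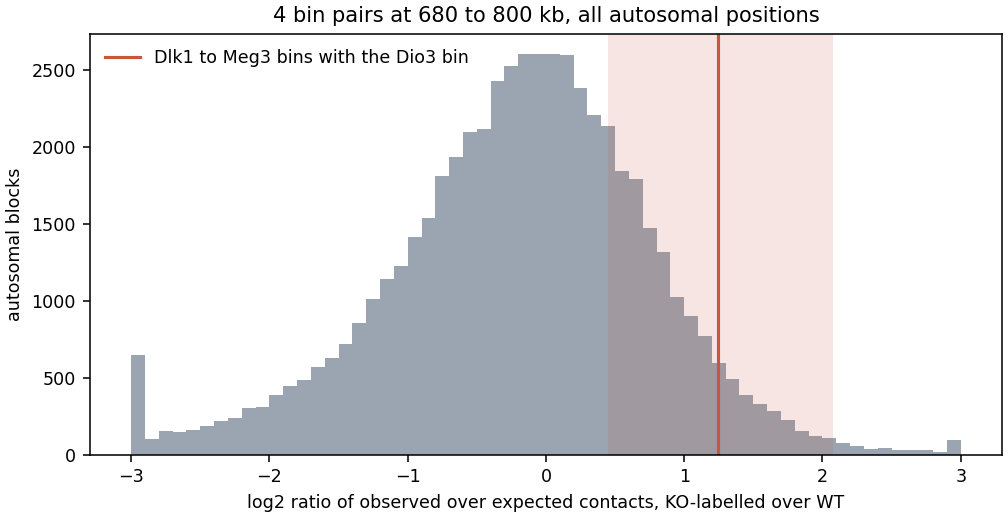
Number of autosomal positions (vertical axis) by the log2 ratio of observed over expected contacts, KO-labelled matrix over WT (horizontal axis), for blocks of 4 bin pairs at 680 to 800 kb. The end bars also hold the values beyond -3 and 3. The red line is the block of the Dlk1 to Meg3 bins with the Dio3 bin at 1.25, with its 95% counting interval shaded.

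Dio3 was not where the contacts of the Dlk1 to Meg3 bins were highest. In both matrices they were higher with a bin without an annotated gene at chr12:111600001-111640000, which was picked for these values. It lies 120 kb beyond the Dio3 bin and 120 kb before the distal border. In WT it was also the lowest bin of the distal trough. The WT distal border was called in this same bin with a span of 160 kb or from uncorrected read pairs. There the Dlk1 to Meg3 bins had 29 read pairs in WT and 67 in the KO-labelled matrix. Observed over expected was 1.47 in WT and 4.78 in the KO-labelled matrix, a log2 ratio of 1.70 (1.05 to 2.38). In the KO-labelled matrix this was the highest value of the 51 bins read, and in WT it was second to the bin of Wars and Wdr25, at 1.68. Inside the domain the median over bins was 0.970 in WT and 1.28 in the KO-labelled matrix, and outside it 0.625 and 0.482.

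The contacts of this bin with each gene differed between the matrices in the same direction except at Dio3. With Begain, observed over expected was 1.28 (0.654 to 2.28) in WT and 3.66 (2.39 to 5.40) in the KO-labelled matrix. With Dlk1 it was 1.98 (0.906 to 3.76) and 5.22 (3.04 to 8.36). With Meg3 it was 1.34 (0.715 to 2.31) and 5.18 (3.60 to 7.26). For these 3 genes the KO-labelled value was the higher and the intervals did not overlap, except at Dlk1, where they did. The bin was picked for its contacts with the Dlk1 to Meg3 bins. The values of Dlk1 and Meg3 reuse those read pairs, so they are not independent readings. With Rian, it was 1.43 (0.774 to 2.43) and 4.02 (2.68 to 5.84). With Mirg it was 1.06 (0.531 to 1.90) and 2.84 (1.66 to 4.55). With Dio3, the nearest of the 6, it was 1.96 (1.57 to 2.43) in WT and 0.905 (0.560 to 1.38) in the KO-labelled matrix, so the order was turned.

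In WT, too, the bin had high contacts, but over a shorter reach. With the 12 bins between Mirg and Dio3 it had a mean of 2.41 (2.21 to 2.63) in WT and 2.65 (2.35 to 2.98) in the KO-labelled matrix, a log2 ratio of 0.14 (-0.08 to 0.35). With the 11 bins from Begain to Dlk1 the mean was 1.04 (0.756 to 1.44) in WT and 3.76 (3.01 to 4.68) in the KO-labelled matrix. The distal bin's contacts were highest, in the KO-labelled matrix, with the bin of Wars and Wdr25, chr12:110120001-110160000, with which it had 5 read pairs in WT and 33 in the KO-labelled matrix. Observed over expected for that pair was 1.16 (0.376 to 2.71) and 8.97 (6.18 to 12.6). Wars encodes a tRNA synthetase.

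The bin of Wars and Wdr25 had contacts of its own with the genes, less different between the matrices. With Dlk1, observed over expected was 2.32 (1.66 to 3.16) in WT and 3.20 (2.22 to 4.47) in the KO-labelled matrix. With Meg3 it was 1.25 (0.843 to 1.78) and 2.62 (1.88 to 3.57), a log2 ratio of 1.07 (0.37 to 1.79). With Begain, its nearest member, it was 1.22 and 1.24. Of the 6 genes, only Meg3 had a ratio with this bin whose interval lay above 0. No autosomal share was computed for such intervals.

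Around the corner that both bins form, 3 by 3 bins at a distance of 1480 kb held 46 read pairs in WT and 150 in the KO-labelled matrix. Observed over expected was 1.24 (0.894 to 1.72) and 4.68 (3.93 to 5.56), a log2 ratio of 1.91 (1.38 to 2.45). The ratio was 2.10 from uncorrected read pairs. It was above 98.2% of the same square placed at 56117 autosomal positions. The corner was picked from these values and the placements were not, so a high place was set by the choice.

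**Figure D4:**
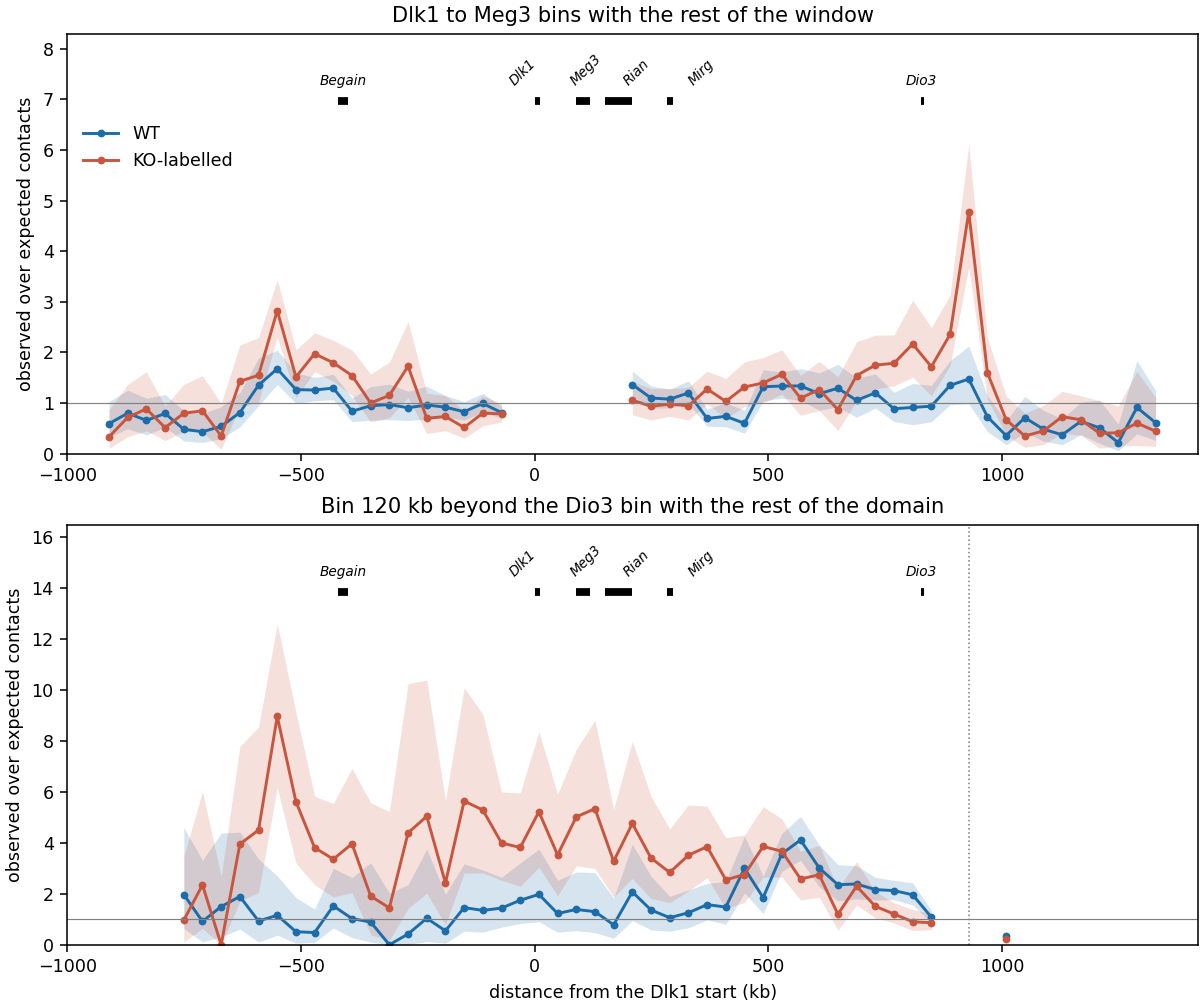
Observed over expected contacts (vertical axes) against distance from the Dlk1 start (kb, horizontal axis) for the Dlk1 to Meg3 bins (top) and for the bin 120 kb beyond the Dio3 bin (bottom, dotted line), in WT (blue) and the KO-labelled matrix (red) with 95% counting intervals as bands. In the KO-labelled matrix the top profile peaks at 4.78 at 929 kb, the place of the dotted line, and the bottom profile stays high across the genes and peaks at 8.97 at the bin of Wars and Wdr25.

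The distal bin was not unusual in depth, with 2500 read pairs in WT and 1759 in the KO-labelled matrix against autosomal medians of 1896 and 1365, and it had 8 HindIII sites where the median of autosomal bins was 13. It held 12 matches to the core of the CTCF motif, 6 on each strand. The median of 58938 autosomal bins was 2, and 0.382% of them held 12 or more. The GC content of the distal bin was 48.1% against an autosomal median of 41.4%. No share was computed among bins of like GC content. The bin of Wars and Wdr25 held 1 match and differed in depth, with 4660 read pairs in WT and 3236 in the KO-labelled matrix and 15 HindIII sites. CTCF is a zinc finger protein found at many domain borders, and the matches are shown because this bin forms the line of contacts across the genes. Each is read 5′ to 3′ on the strand named, from mm9, with the 12 bases of the core in capitals and 4 bases on either side.
chr12:111603189-111603200, plus strand: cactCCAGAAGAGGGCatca
chr12:111605514-111605525, plus strand: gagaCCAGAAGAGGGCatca
chr12:111606167-111606178, plus strand: gtgcCCAGCAGCAGGCcgtt
chr12:111611794-111611805, minus strand: ataaCCAGCAGGGGGCaggc
chr12:111612122-111612133, plus strand: acagCCAGAAGCTGGCagag
chr12:111616152-111616163, plus strand: cctgCCAGCAGGGGGCgtac
chr12:111617390-111617401, minus strand: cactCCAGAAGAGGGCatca
chr12:111618637-111618648, minus strand: gggcCCACCAGAAGGCatgg
chr12:111621092-111621103, minus strand: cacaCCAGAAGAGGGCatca
chr12:111636809-111636820, minus strand: ctggCCACCAGGAGGCgccg
chr12:111639358-111639369, plus strand: gaggCCACAAGAGGGCatca
chr12:111639802-111639813, minus strand: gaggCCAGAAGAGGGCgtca
The match in the bin of Wars and Wdr25 was chr12:110121749-110121760, plus strand: gaggCCAAAAGAGGGCaccg

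The same 12 bases occurred in 5 of the 12 matches, and also in 5 of the 7 matches of the WT border bin at chr12:112000001-112040000. The KO-labelled border bins at chr12:109920001-109960000 and chr12:110720001-110760000 held 7 and 6 matches. Whether CTCF is bound at any of them was not measured in these data.

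The gene bins held fewer. The Dio3 bin had 6 matches to the core, 5 of them on the plus strand, and the Dlk1 bin had none (0). The Meg3 bins had 4 and 2, and the Rian bins 4, all on the plus strand, and 0. Mirg had 3, all on the minus strand, and the Begain bins had 3 and 1. The bins of the genes had a median GC content of 49.6% against 41.4% over the autosomes, with the second Rian bin lowest at 37.5%, and had a median of 9 HindIII sites.

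For contacts between the genes themselves, 15 pairs were read over the bins of each gene body, and no pair shared a bin. In WT they ran from 0.570, at Rian with Dio3, to 1.23. In the KO-labelled matrix they ran from 0.714 to 2.33. Of the 15 pairs, 8 had a log2 ratio of 0.5 or more and 1 of -0.5 or less, where the same pairs placed over the autosomes had 20.6% and 26.2%. The ratio's interval lay above 0 for 3 pairs and below 0 for 1. With only the bin of each gene start it lay above 0 for 1 pair and below 0 for none (0). The autosomal shares above are for the cut-off of 0.5, and none was computed for these counts of intervals.

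All 5 pairs with Dio3 were among the 8, where 29.1% of the same pairs placed over the autosomes reached 0.5. The 5 share the bin of Dio3, and those of Dlk1 and Meg3 reuse read pairs of the block above, so they are not independent readings. Dlk1 with Dio3 was above 72.4% of its placements, Begain with Dio3 above 72.6% and Rian with Dio3 above 98.2%. Rian and Dio3 shared 8 read pairs in WT and 20 in the KO-labelled matrix, with observed over expected of 0.570 (0.241 to 1.17) and 2.33 (1.40 to 3.67) and a log2 ratio of 2.03 (0.76 to 3.44). Over whole gene bodies this was the pair with the largest ratio of the 15. For the other four the interval included 0. Meg3 and Dio3 had 12 and 17 read pairs, at 1.00 and 2.08. Mirg and Dio3 had 14 in each, at 1.03 and 1.94. Dlk1 and Dio3, which code for the ligand-like protein and the deiodinase, had 6 in each, at 1.08 and 1.68. Begain and Dio3, 1240 kb apart, had 13 and 14, at 1.14 and 1.78.

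The proximal genes also had pairs with higher values. Begain and Meg3 had 65 read pairs in WT and 61 in the KO-labelled matrix, at 1.02 (0.782 to 1.31) and 1.67 (1.26 to 2.19), a log2 ratio of 0.72 (0.17 to 1.26). With the gene-start bins alone it was 0.30, with an interval that included 0. Dlk1 and Meg3, which flank the differentially methylated region, had 86 and 62, at 1.04 (0.825 to 1.29) and 1.54 (1.16 to 2.02), a ratio of 0.57 (0.05 to 1.08), and 0.58 (-0.04 to 1.19) with the gene-start bins. Begain and Dlk1 had 54 and 41, at 1.14 and 1.72, with a ratio of 0.59 (-0.04 to 1.20).

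Over whole gene bodies, all 5 pairs of Dlk1, Meg3 or Rian with Rian or Mirg had ratios below 0. Such ratios were common, since the median of each pair's autosomal placements lay between -0.022 and 0.0011. The 5 ratios were above 11.0% to 43.7% of their placements. Begain with Rian was at 0.08 and Begain with Mirg at -0.46. The sign did not hold for every pair. With the gene-start bins alone, Meg3 with Rian was at 0.16 (-0.52 to 0.82) and Meg3 with Mirg at 0.23 (-0.71 to 1.12). Meg3 and Rian had 215 read pairs in WT and 91 in the KO-labelled matrix, at 1.20 (1.03 to 1.40) and 0.898 (0.702 to 1.14), a log2 ratio of -0.42 (-0.84 to -0.01). Rian and Mirg had 110 and 37, at 1.07 and 0.788, with a ratio of -0.45 (-1.02 to 0.11). Dlk1 and Mirg had 31 and 8, at 1.20 and 0.714, with a ratio of -0.75 (-2.06 to 0.38).

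**Figure D5:**
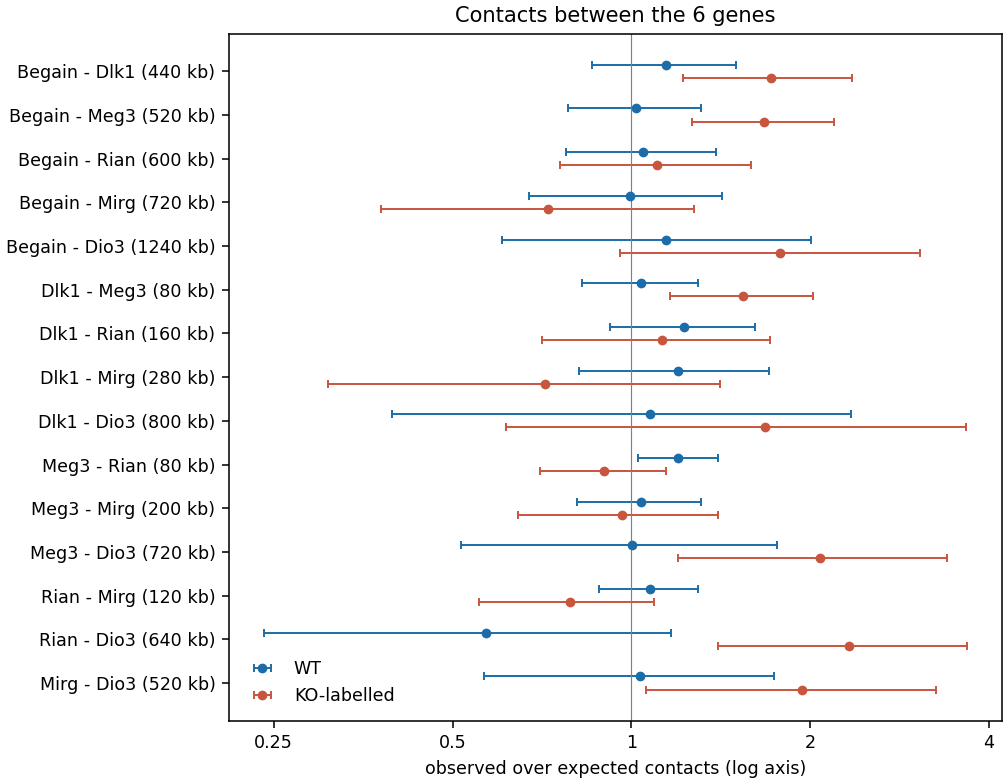
Observed over expected contacts (horizontal axis, log scale) of the 15 pairs of the 6 genes, with the distance between their first bins in brackets, in WT (blue) and the KO-labelled matrix (red) with 95% counting intervals. Pairs with Dio3 lie further right in the KO-labelled matrix, most of all Rian with Dio3 at 2.33 against 0.570 in WT, while the 5 pairs of Rian or Mirg with Dlk1, Meg3 or Rian lie further left.

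Each gene bin was also described by the direction of its contacts, the log2 of those toward Dio3 over those toward Begain, at 80 to 480 kb. Of the 9 bins, 5 had a value higher by 0.5 or more in the KO-labelled matrix, where 19.7% of autosomal bins did, and 1 had a value lower by that much, where 19.6% did. The 2 Begain bins pointed into the domain in both matrices, with 0.96 and 0.78 in WT, and values higher by 0.54 (0.22 to 0.87) and 0.68 (0.31 to 1.04) in the KO-labelled matrix. The Dlk1 bin had 0.33 and 0.24. The Meg3 bins, with 0.14 and -0.03 in WT and -0.0019 and 0.11 in the KO-labelled matrix, had no direction beyond their intervals in either.

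From Rian onward the directions differed. The first Rian bin had 0.02 (-0.26 to 0.29) in WT and 0.88 (0.46 to 1.28) in the KO-labelled matrix. The Mirg bin turned from -0.34 (-0.57 to -0.12) to 0.58 (0.23 to 0.93), that is, from the side of Dlk1 to that of Dio3. The Dio3 bin pointed back into the domain in both, with -0.74 (-0.99 to -0.48) in WT and -2.10 (-2.46 to -1.70) in the KO-labelled matrix. Its difference of -1.35 (-1.80 to -0.88) was below all but 1.69% of autosomal bins.

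The window was last cut at the genes into 5 segments, before Begain, Begain to Dlk1, Dlk1 to Mirg, Mirg to Dio3, and Dio3 and after. Of 15 segment pairs, 3 had a log2 ratio of 0.5 or more and 0 had one of -0.5 or less, where the same shapes over the autosomes had 6.55% and 15.8%. The 3 were the pairs of the last segment, which starts with Dio3, with the bins before Begain, with Begain to Dlk1 and with Dlk1 to Mirg. Their own shapes reached 0.5 more often than the pooled share, at 8717 of 57571, 8169 of 57861 and 7134 of 58134 placements. All 3 share the last segment, which holds the distal bin picked above, so they are not independent readings. Its contacts with the Dlk1 to Mirg segment were at 0.699 (0.634 to 0.773) in WT and 1.29 (1.19 to 1.41) in the KO-labelled matrix, a ratio of 0.89 (0.70 to 1.07). Those with the Begain to Dlk1 segment were at 0.622 and 1.12, a ratio of 0.84 (0.63 to 1.06). Those with the bins before Begain were at 1.11 and 1.90, a ratio of 0.78 (0.62 to 0.95).

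Segments next to each other at the proximal end differed in the other direction. Contacts between the bins before Begain and the Begain to Dlk1 segment were at 0.991 (0.951 to 1.03) in WT and 0.770 (0.720 to 0.825) in the KO-labelled matrix. Within the Mirg to Dio3 segment they were at 0.954 (0.921 to 0.989) and 1.32 (1.26 to 1.39), a ratio of 0.47 (0.38 to 0.56) that was above 99.3% of such triangles on the autosomes. Over the 316 bin pairs that join the segments between Begain and Dio3, the mean was 1.03 (0.989 to 1.06) and 1.17 (1.12 to 1.23), a ratio of 0.19 (0.11 to 0.28), which was 0.02 (-0.06 to 0.10) from uncorrected read pairs.

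On the scale of the chromosome, the first eigenvector of the contact correlations at 200 kb, oriented so that GC-rich regions are positive, was read over the 13 steps of the window. It had the same sign in both matrices at 10 of them (76.9%), where 77.8% of the 576 steps of chromosome 12 did. The step of Dio3 was positive in both, 0.48 in WT and 0.03 in the KO-labelled matrix. The step of Dlk1 and the start of Meg3 was -0.08 and 0.10, close to 0 in each, and that of Begain 0.05 and -0.24. The correlation of this vector with GC content across chromosome 12 was 0.65 in WT and 0.38 in the KO-labelled matrix, so it is a weaker guide in the latter.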

How the data were processed

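In situ Hi-C with HindIII was measured in male mESCs, 2 libraries of WT and 2 of Firre KO. The deposited signal values are contacts in 40 kb bins of mm9 that the authors made with HiC-Pro, version 2.7.8 per the submitters' processing notes, pooling the libraries of a group and balancing the matrix (ICE). Dividing out the balancing weights recovered whole read pairs, 100% of them within 0.05 of a whole number. There were 65611035 in WT and 46635652 in the KO-labelled matrix, and these gave the 95% counting intervals. PCR copies are not independent molecules, so the intervals cover counting error only.

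Observed over expected contacts, insulation scores (480 kb square), borders (320 kb span) and the eigenvector (200 kb) were computed with Python 3.11.15, numpy 2.4.6, scipy 1.17.1 and pandas 2.3.3. Scripts were tested on simulated data. The insulation score is an own implementation and may differ in detail from the study's. Named genes were the 6 members, their neighbours in the window and, for comparison, genes of other imprinted domains. Places among autosomal positions are descriptions. With 1 matrix in each group no test was made. The members and lists were chosen with earlier results of these data known, and the domain between borders, the distal and proximal bins and their corner were chosen after their values were seen.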

Additional observations from a re-analysis of the deposited data

How the results depend on the processing

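With 1 pooled matrix in each group, the limits are those of counting depth, and many bin pairs at the distance of Dlk1 and Dio3 hold fewer than 10 read pairs. No paired analysis was possible because each group is 1 pooled matrix whose columns carry no replicate number, and for the same reason no library could be left out. The contacts of the Dlk1 to Meg3 bins with Dio3 kept their direction under every alternative run. All but 1 of these reuse the same 22 and 36 read pairs, so they could hardly turn it. With 1 bin more on each side, 161 and 185 read pairs gave a lower log2 ratio of 0.89 (0.56 to 1.22). The median insulation difference of the gene bins, 0.16, was 0.031 with the plain mean, -0.15 with a 240 kb square, 0.60 with a 960 kb square, -0.16 from uncorrected read pairs and -0.15 from their plain mean. In the bin of the gene start, Dlk1 with the 240 kb square was at -0.27 and Meg3 at -0.25. From uncorrected read pairs Dlk1 was at -0.23, Meg3 at -0.21 and Rian at -0.086, and with their plain mean at -0.10, -0.18 and -0.15. Dio3, 0.07, was at -0.0060 with the plain mean, -0.19 with 960 kb, -0.12 from uncorrected read pairs and -0.10 with their plain mean. With scores divided by the autosomal SD it was at 0.46, in units of SD and not log2. The yardstick for all insulation differences was the counting error of the plain mean, which is in log2. By that yardstick the scores in SD moved no other gene, but the units are unlike. Begain, -0.04, was at -0.15 with the plain mean, -0.43 with 240 kb, -0.39 from uncorrected read pairs and -0.30 with their plain mean. Rian, 0.21, was at 0.075 with the plain mean and 0.014 with 240 kb, Meg3, 0.15, at 0.021 with the plain mean, and Mirg, 0.39, at 0.14 with the plain mean of uncorrected read pairs. With 960 kb Begain was at -0.81, Dlk1 at 0.51, Meg3 at 0.60, Rian at 0.67 and Mirg at 0.78. Of 4 WT borders, 2 were shared, against 1 of 2 with the plain mean, 0 of 1 with a 960 kb square, 1 of 3 from uncorrected read pairs, 3 of 4 within 2 bins, 1 of 4 when the same bin was required and 1 of 2 with the plain mean of uncorrected read pairs. Contacts between segments, 0.19, were 0.020 from uncorrected read pairs. Gene pairs with an interval above 0 numbered 3, and 1 with the gene-start bin alone, where Begain with Meg3 (0.30) and Dlk1 with Meg3 (0.58) lost it and Meg3 with Rian turned from -0.42 to 0.16 and Meg3 with Mirg from -0.10 to 0.23. The eigenvector's shared signs, 76.9%, were 100% at 400 kb. Contacts across the proximal border, -0.51, were -0.17 with 240 kb and -0.98 with 960 kb, and across the distal border, -0.56, they were -0.43 with 240 kb. The cause of these shifts was not tested. Of 81 alternative values, 40 stayed within the interval set for them or kept their call, 15 changed sign, 4 of them at Dio3, and 19 came from alternatives chosen after seeing the data.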

Other observations

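Genes of other imprinted clusters, all on chromosome 7, were read by the insulation score of their start bin. Igf2, which encodes a growth factor, scored -0.28 in WT and -0.54 in the KO-labelled matrix, and the non-coding RNA gene H19 scored -0.11 and -0.26. Cdkn1c, which encodes an inhibitor of the cell cycle, scored -0.35 and -0.21. Larger differences were at Snrpn, with 0.19 and -0.90, and at Ndn, with -0.69 and -1.96. With the plain mean the differences at Snrpn and Ndn were -0.33 and -0.44. Ube3a had no score in its bin. No test was made of any of these.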
